A study of Mus musculus with 29 samples.

Results

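The genes that encode the proteins of the cytosolic ribosome were followed in hematopoietic stem cells (HSCs) of young and old mice with and without Gadd45b. Members were taken by symbol, as Rpl or Rps followed by a number and at most 1 closing letter (a, l, x or y), together with Rplp0, Rplp1, Rplp2 and Rpsa, and rows with Gm or -ps names were left out. The rule found 83 of the 55376 gene symbols: 45 of the large subunit, 30 of the small subunit, 3 of the stalk, and 5 listed as paralogs (Rpl3l, Rpl10l, Rpl39l, Rps27l and Rps4l). In GENCODE M21, 80 of them were protein coding, while Rps4l was a transcribed processed pseudogene and Rpl6l and Rpl32l were processed pseudogenes, so these 3 met the rule by symbol only. Some genes of ribosomal proteins, such as Rps3a1, Fau and Rack1, have other symbols and did not meet the rule.

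RNA-seq was made with the SMART-Seq v4 kit from HSCs, sorted by the study as lineage-negative, c-Kit and Sca-1 positive cells that lack CD34 and Flk2 and carry CD150. The 19 libraries were 4 of young wild type (YWT), 4 of old wild type (OWT), 4 of young knockout (YKO) and 7 of old knockout (OKO) mice. The knockout, written Gadd45KO in the labels, is a line lacking Gadd45b that is carried by the whole animal and not by HSCs alone, and no further allele or agent is named for any of the groups. The labels give young or old without an age in numbers, and they do not say whether each library came from a separate animal, so p-values measure only the spread between these libraries.

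A ribosome joins a small subunit, which reads the mRNA, to a large subunit, which forms the peptide bond. Each subunit holds a fixed set of proteins, most of them in equal numbers. The mRNAs of these proteins are abundant and short and begin with a 5′ terminal oligopyrimidine (TOP) tract, a run of C and T read by mTOR signaling through Larp1, so that much of their control lies in translation and is not seen in mRNA levels. HSCs are known for a low rate of protein synthesis, and loss of 1 copy of genes such as Rps19, Rpl5 or Rpl11 causes Diamond-Blackfan anemia, a failure of red cell production.

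A tract at the start of the gene is a sequence feature that the symbol rule did not use. Windows around the annotated start were matched in RefSeq (GRCm38.p6) for 61 of the 83 members, and Rps4l was not among them. A run of at least 10 C or T bases on the gene's strand within 20 bases of the start was found in 20 of the 61 (32.8%), compared with 7.25% of 27025 windows of all genes, and a run of at least 7 in 57.4% compared with 24.2%. On either strand of the 300-base promoter window, CCGGAAG, a core of ETS factor sites, was held by 39.3% of the members compared with 9.12% of all genes. TATAAA was held by 9.84% compared with 14.2%. The 30 bases that follow run from 15 before the annotated start to its next 14, with the longest run of C and T in capitals. They are shown for only some of the members named in the results. In named members not shown, the longest run in this window went from 2 bases (Rpl24) to 13 (Rps10). Rpl35, Rpl38, Rps18 and Rps6 show long runs at the start, whereas Rps19 and Rps4x show short ones in this window.
Rps27 (chr3:90213634-90213663, minus strand): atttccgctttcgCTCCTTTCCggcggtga
Rps6 (chr4:86857353-86857382, minus strand): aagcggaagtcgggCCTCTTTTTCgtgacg
Rps18 (chr17:33955651-33955680, minus strand): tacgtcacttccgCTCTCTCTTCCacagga
Rplp2 (chr7:141447636-141447665, plus strand): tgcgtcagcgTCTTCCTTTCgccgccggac
Rpl35 (chr2:39005117-39005146, minus strand): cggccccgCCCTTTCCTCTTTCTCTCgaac
Rpl38 (chr11:114668565-114668594, plus strand): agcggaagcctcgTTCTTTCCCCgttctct
Rps27l (chr9:66946071-66946100, plus strand): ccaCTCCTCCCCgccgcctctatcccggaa
Rps19 (chr7:24884577-24884606, plus strand): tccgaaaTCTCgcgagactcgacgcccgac
Rps4x (chrX:102189377-102189406, minus strand): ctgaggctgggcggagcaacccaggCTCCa

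Library totals ranged from 22197555 to 77970627 counts, and TMM factors, which rescale each library by the bulk of its genes, from 0.692 to 1.83, with OKO replicate 1 the highest. The 10 HSC markers were counted in all 19 libraries. Gadd45b was at 7.34 to 17.5 CPM (counts per 1000000, divided by the TMM factor) in YWT and 5.14 to 14.3 in the libraries labelled YKO, which overlap, and at 10.1 to 15.5 in OWT and 2.84 to 6.94 in OKO. The OWT libraries and 4 of the OKO libraries (replicates 4 to 7) have titles that begin with IB15, which the study's sequencing summary lists as another sequencing batch than the YWT, YKO and remaining 3 OKO libraries, so age in wild type and this prefix cannot be told apart. All libraries are labelled female, whereas the study's methods say that mice of both sexes were used, and 7 of the 19 held at least 6133 counts on 4 Y-linked genes (2 YWT, 1 OWT, 2 YKO and 2 OKO) and the others at most 7.

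The members took 3.52% ± 0.83 (SD, n = 7) of all counts in OKO, against 3.47% ± 0.97 (SD, n = 4) in YKO. In wild type they took 3.61% ± 0.51 (SD, n = 4) in old and 3.67% ± 0.83 (SD, n = 4) in young mice. In YWT replicates 1 to 4 the share was 4.51%, 2.55%, 3.61% and 4.02%, and in OWT 3.53%, 3.09%, 3.53% and 4.31%. In YKO it was 2.90%, 2.40%, 4.17% and 4.42%, and in OKO it ran from 2.56% through a median of 3.36% to 4.93%. The 4 groups overlapped, and the spread within each was larger than any difference between their means. Once each library was divided by its TMM factor, the sum over members was 33063 to 46222 CPM in YWT, 34046 to 44304 in OWT, 25101 to 47293 in YKO and 18249 to 50354 in OKO. On that scale 5 of the 7 OKO libraries, at 18249 to 29820 CPM, lay below all of YWT and OWT, while OKO replicates 6 and 7 lay above all of them. In bulk RNA, fewer cells of a type and less RNA per cell cannot be told apart.

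**Figure D1:**
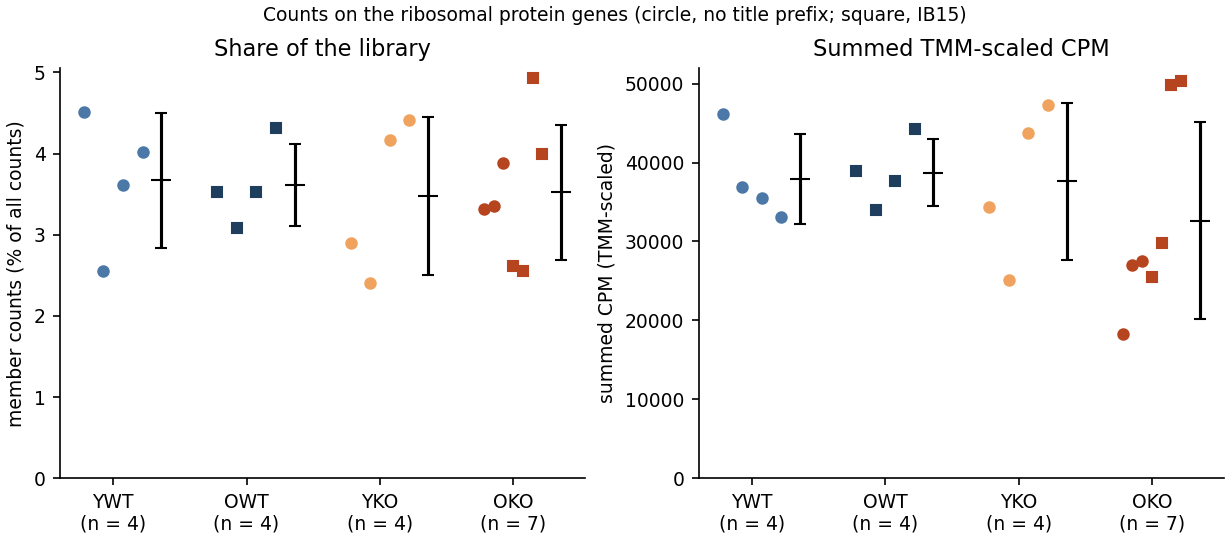
Share of all counts taken by the ribosomal protein genes (percent, left) and their summed level (CPM after TMM scaling, right) in each of the 19 libraries by group. Each point is a library, circles without and squares with the IB15 title prefix, and bars are the group mean and SD. The shares of the 4 groups overlap, with group means between 3.47% and 3.67%, while after scaling OKO spans 18249 to 50354 CPM.

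The members moved up and down together from library to library. For the 75 protein-coding members with a mean of at least 10 CPM, the median Pearson r between pairs of members over the 19 libraries was 0.92, and 0.93 when the group means were removed first. For 77 mitochondrial ribosomal protein genes the same median was 0.89, and for 17 other TOP mRNAs 0.81. These correlations are over log2(CPM + 1) in the same libraries, share their scaling factors, and are given as a description. In OKO replicates 6 and 7, 80 of the 82 tested members lay above their own mean over the 19 libraries, and in OKO replicates 1 to 5 between 1 and 6 did. YKO was divided as well, with 2 of 82 above their mean in replicate 2 and 82 in replicate 4. Members that did not follow the rest were Rpl3l, with r = -0.47 to the sum of the others, Rps10 with -0.04 and Rpl39l with 0.22, and the summed level of the large subunit genes stayed at 1.36 to 1.47 times that of the small subunit genes in every library.

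**Figure D2:**
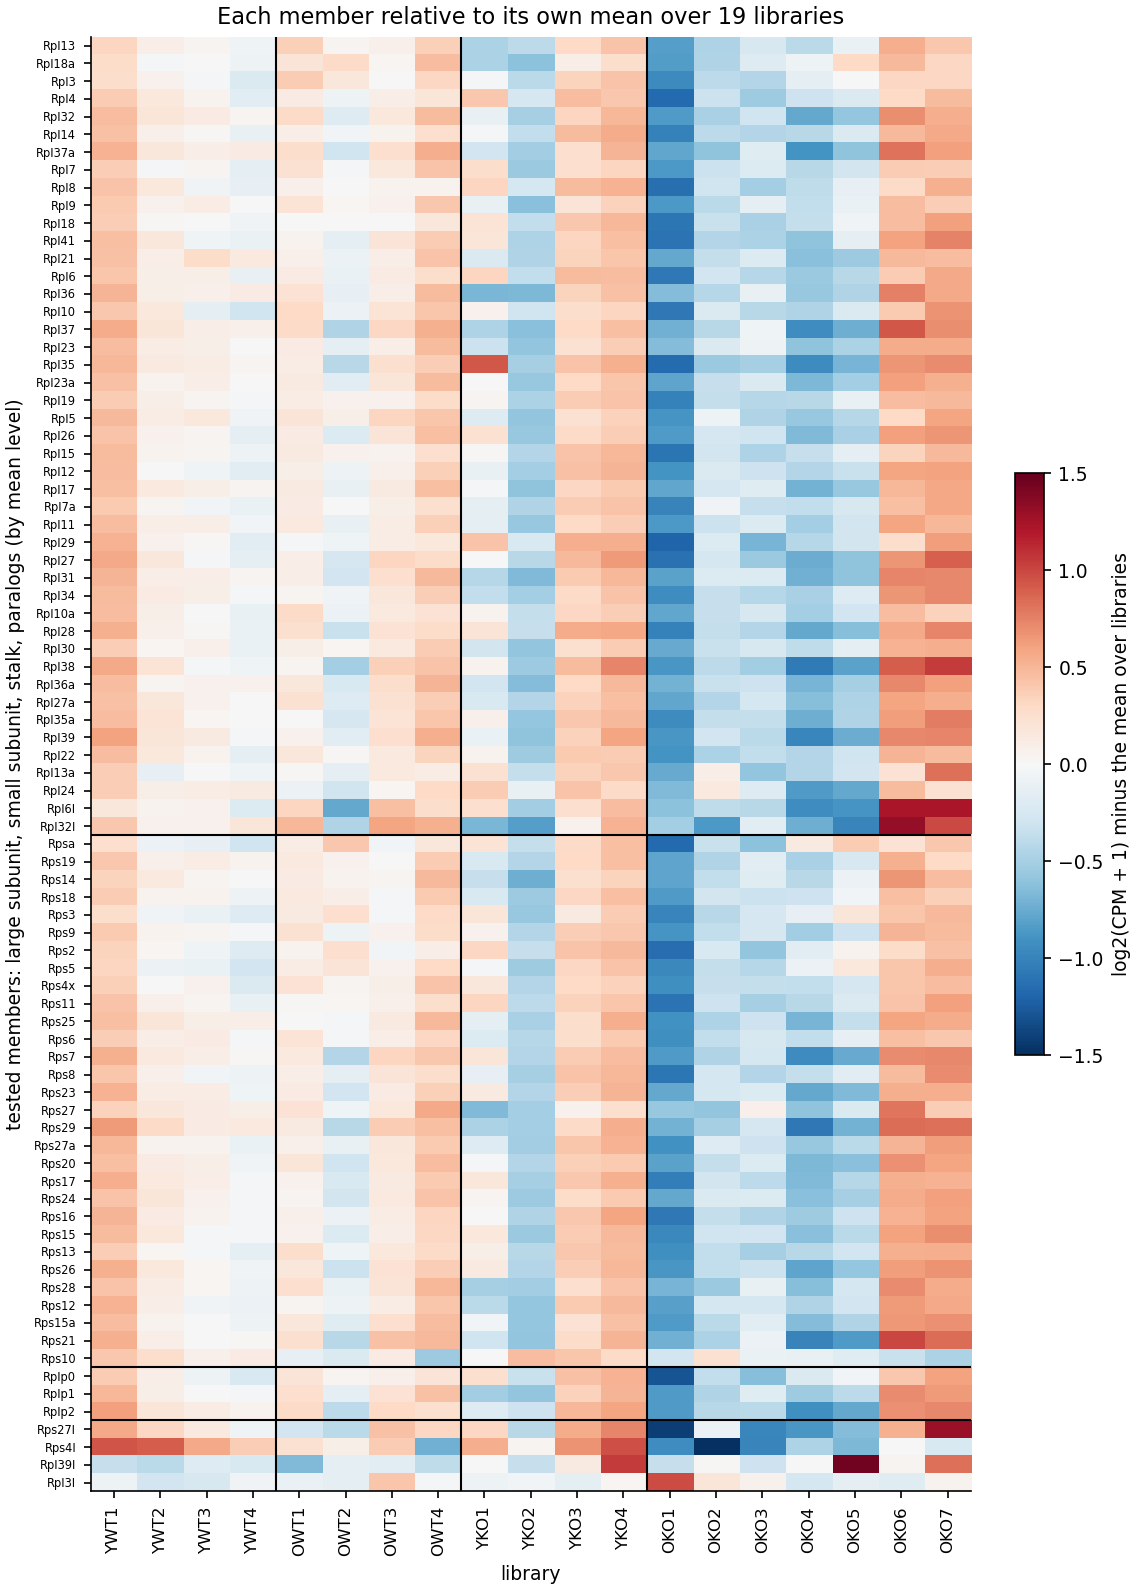
Level of the 82 tested members (rows) in the 19 libraries (columns), as log2(CPM + 1) minus the mean of the same gene over all libraries. OKO replicates 6 and 7 are high and OKO replicates 1 to 5 low for nearly all members, while columns such as YKO replicate 1, with 39 members above and 43 below their mean, are mixed.

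Levels were compared between genes per kilobase of mRNA. The highest mean levels were those of Rpl13 (1835 CPM per kb), Rps18 (1565), Rps27 (1320) and Rps19 (1238), whose ranges over the 19 libraries overlapped from each to the next. The lowest of the tested members were Rpl3l (0.22 CPM per kb), a form known from striated muscle, Rpl39l (0.88), a form known from testis, Rps10 (5.57) and the pseudogene Rpl6l (8.26). The low values of Rps10, Rpl24 and Rpl13a come with annotation overlap: 53.6%, 71.5% and 59.3% of their mRNA is shared with a same-strand readthrough or Gm gene, and how reads in shared exons were assigned is not given in the sources used here. Rpl10l, a germ cell form, had 0 to 12 counts per library and was the 1 member not tested. Among members with a mean of at least 10 CPM the coefficient of variation over the libraries was largest for Rps4l (47.7%), Rps27l (45.2%), Rpl38 (42.4%) and Rps21 (39.2%), and smallest for Rpl3 (22.3%), Rps6 (22.8%), Rpl9 (22.9%) and Rps3 (22.9%).

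Age in wild type was read from OWT and YWT. Of the tested ribosomal protein genes, 37 were higher and 45 lower in OWT, with a median log2 fold change of -0.01, compared with -0.05 over the 33690 genes tested. With the title prefix as a covariate, which is estimated within OKO alone, the median was -0.63, with 1 higher and 81 lower, and 0 were called. None of the 82 tested members was called by the edgeR quasi-likelihood test, which asked for an adjusted p below 0.05 together with a change of more than 1.5-fold and called 0.00297% of all genes, and at an unadjusted p under 0.05 there was 1, Rps4l, where 4.38% of all genes passed. DESeq2 also called 0 members (0.575% of all genes it tested). No member had groups that did not overlap (4.13% of all genes). Of the 75 abundant protein-coding members, 74 had a 95% interval within a 2-fold change in either direction, and their fold changes ran from -0.20 (Rps27l) to 0.23 (Rpsa) on the log2 scale. In the same direction as Rps4l stood Rps10, at -0.48 with a standard error (SE) of 0.26. Rpl3l, with 2 to 76 counts per library, was at 1.20.

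The genotype in young mice was read from YKO and YWT. The members again centered on 0, with 39 higher and 43 lower in the libraries labelled YKO and a median of -0.01 compared with -0.02 over all genes. The edgeR test called 0 members (0.0267% of all genes) and none had an unadjusted p under 0.05 (4.59%), DESeq2 called 0 (0.506%), and no member had groups that did not overlap (5.12%). For 71 of the 75 abundant protein-coding members the 95% interval lay within a 2-fold change. Rps27 of the small subunit was at -0.35, Rps29 at -0.28 and Rpl36 at -0.26, and Rpsa, a small subunit protein also known as a laminin receptor, was at 0.23. Rps19 (-0.10), Rpl5 (-0.20) and Rpl11 (-0.13), the genes of Diamond-Blackfan anemia, had intervals that included 0. The low-count Rpl39l was at 1.71, with an interval from -0.21 to 3.64.

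The genotype in old mice was read from OKO and OWT. Of the tested members, 78 were lower and 4 higher in OKO, with a median log2 fold change of -0.24, while the median over all genes was 0.12. The edgeR test called 0 members (0.0327% of all genes), and 2 had an unadjusted p under 0.05, Rps4l lower and Rpl39l higher, where 8.14% of all genes passed. DESeq2 called 0 (0.282%), and no member had groups that did not overlap (0.819%). All 75 abundant protein-coding members lay below 0 and within a narrow band from -0.39 (Rpl5) to -0.08 (Rps27l), and all 75 intervals lay within a 2-fold change and included 0. By role, the median was -0.24 for the large subunit, -0.23 for the small subunit and -0.25 for the stalk. With only the 4 OKO libraries that share the IB15 prefix with OWT, the median was 0.03, with 53 higher and 29 lower and 0 called. Marker genes were read in the same comparison, and none was called. The 7 granulocyte markers had log2 fold changes of -2.08 to -1.69. They summed to 299.9 to 564 CPM in OWT and 29.8 to 312 in OKO. The 10 HSC markers had -0.66 to -0.24, and the megakaryocyte markers were lower in OKO as well. B cell, plasma cell, T cell and erythroid markers went in both directions, with the erythroid markers at -0.62 (Alas2) to 0.68 (Car1). The part of these markers in the levels of the members was not tested.

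Age in the knockout was read from OKO and YKO, which share YKO with the genotype comparison in young mice and OKO with that in old mice, as the comparisons in wild type share YWT and OWT. The median log2 fold change of the members was -0.20, with 9 higher and 73 lower, while over all genes it was 0.23. The edgeR test called 1 member, Rps4l, which fell with age (1.29% of all genes were called), and 2 had an unadjusted p under 0.05, Rps4l and Rps10 (15.8%). DESeq2 called Rps4l alone (8.5%), and Rps4l alone had groups that did not overlap (2.6%). The medians by role were -0.21 for the large subunit, -0.20 for the small subunit and -0.32 for the stalk, whose proteins recruit the translation GTPases. For 70 of the 75 abundant protein-coding members the 95% interval lay within a 2-fold change.

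**Figure D3:**
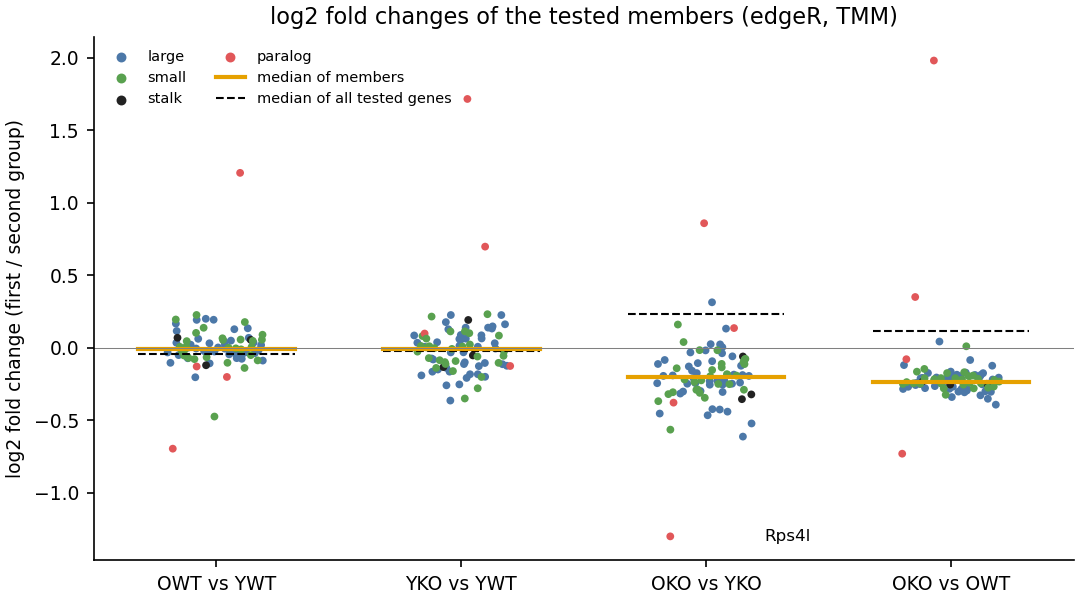
Log2 fold change of each tested member in the 4 comparisons of age and genotype, with the median of the members (gold) and the median over all 33690 tested genes (dashed). In both comparisons that hold OKO the member median, -0.20 and -0.24, lies below that over all genes, 0.23 and 0.12, and Rps4l is the lowest member.

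The stalk gene Rplp0 is an example of the spread within the groups. Its level was 1895, 1555, 1376 and 1243 CPM in YWT, 1659, 1497, 1536 and 1669 in OWT and 1713, 1151, 1980 and 2081 in YKO. In OKO the lowest of 7 libraries was at 592, the median at 1256 and the highest at 2209 CPM. OKO thus held both the lowest and the highest library of the 19, and the change from YKO was -0.36 with a 95% interval from -0.95 to 0.24 and an adjusted p of 0.562 in the edgeR test. Rpl35, a large subunit protein at the exit of the peptide tunnel, had the lowest value among the protein-coding members in that comparison, at -0.61 with an SE of 0.33 and an edgeR adjusted p of 0.370. It was at 627, 233, 442 and 476 CPM in YKO and at 148 to 537 with a median of 223 in OKO, so 3 of the 4 YKO libraries lay within the OKO range. The antisense gene Wdr38 overlaps 68.3% of its mRNA, and whether strand was used in counting is not given in the sources used here.

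Members known for roles beyond the ribosome or for disease of the blood were read one by one. Rps19 was at 965 to 1231 CPM in YWT, 924 to 1214 in OWT, 685 to 1274 in YKO and 538 to 1347 with a median of 787 in OKO. Rpl5 and Rpl11, which together with 5S RNA bind Mdm2 when ribosome assembly fails, changed by -0.12 and -0.11 between YKO and OKO, with SEs of 0.25 and 0.25. Rps6, the target of the S6 kinases, was at -0.14 (SE 0.24), and Rpl38, known for its part in the translation of Hox mRNAs, at -0.26 (SE 0.37). The intervals of these 5 genes included 0 in each of the 4 comparisons, and their groups overlapped. Of the protein-coding members, Rps27 was the highest of those with at least 10 CPM, at 0.16 (SE 0.27).

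Rps4l was the 1 member called in the fit of all 19 libraries without a covariate. It lies on chr6:148354656-148355598 (GRCm38, plus strand) as a single exon of 943 bases, and resembles Rps4x, the X-linked gene of a small subunit protein. It was at 30.8, 29.9, 23.6 and 20.4 CPM in YWT, at 18.4, 16.6, 20.5 and 9.01 in OWT, and at 23.2, 16.0, 25.4 and 31.2 in YKO. In OKO replicates 1 to 7 it was at 7.65, 3.96, 7.33, 10.99, 9.32, 15.6 and 13.1 CPM. Each OKO library thus lay below each YKO library and each YWT library, by a narrow margin between OKO replicate 6 and YKO replicate 2, while OKO and OWT overlapped. From YKO to OKO it fell by 1.30 on the log2 scale (SE 0.29, 95% interval -1.90 to -0.71, edgeR adjusted p = 0.0249). Leaving out YKO replicate 1, 3 or 4 or OKO replicate 3 raised that edgeR adjusted p to 0.0876, 0.0728, 0.0947 and 0.0545 and ended the call, while leaving out any other library kept it. The other values were -0.70 for OWT vs YWT (edgeR adjusted p = 1.0), -0.73 for OKO vs OWT (edgeR adjusted p = 0.592), -0.13 for YKO vs YWT and -0.60 for the genotype by age interaction (SE 0.44, edgeR adjusted p = 0.811), so a difference of the age change between genotypes was not detected.

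**Figure D4:**
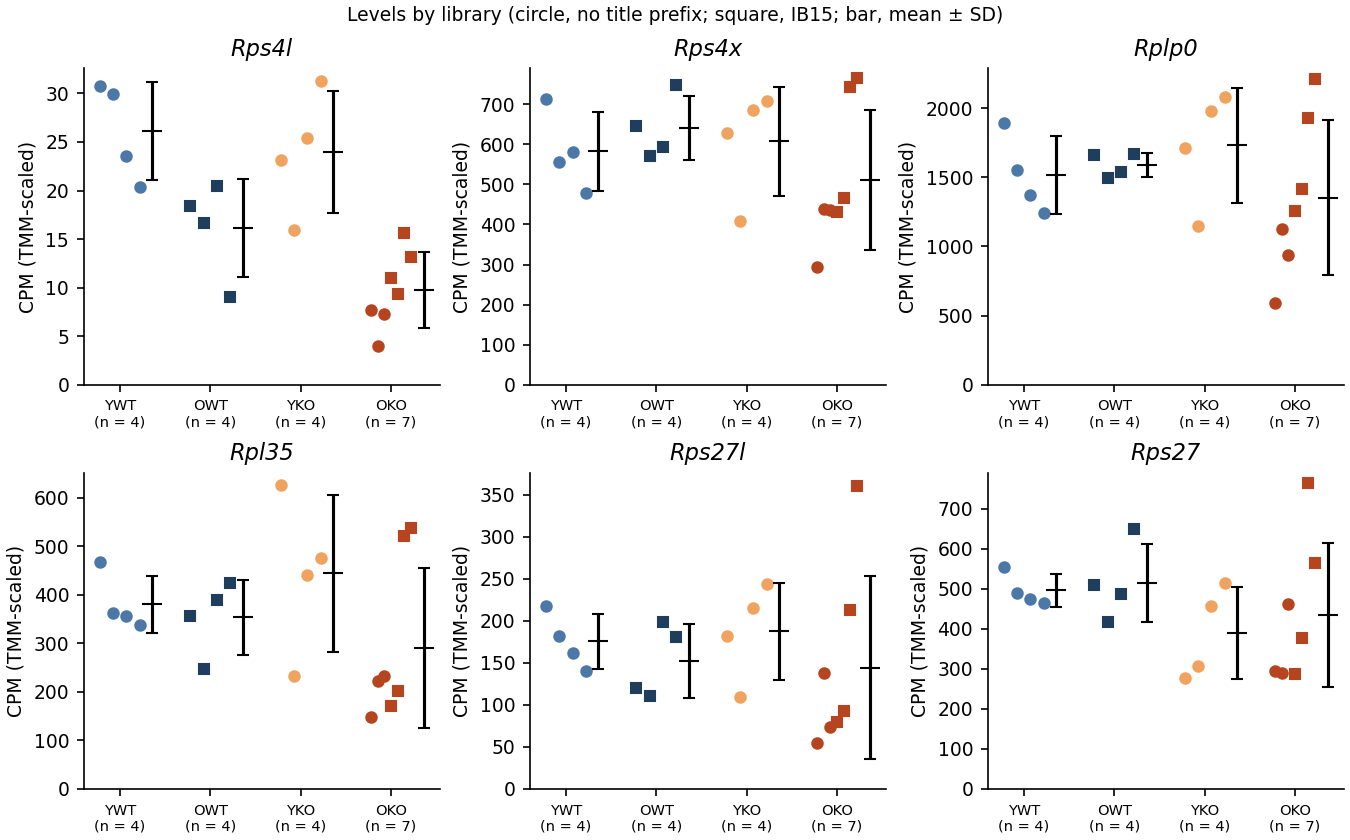
Level (CPM after TMM scaling) of Rps4l, Rps4x, Rplp0, Rpl35, Rps27l and Rps27 in each library by group, with the mean and SD. All 7 OKO libraries of Rps4l, at 3.96 to 15.6 CPM, lie below the lowest YKO library at 16.0, whereas the groups of the other 5 genes overlap.

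Reads from Rps4x could be counted on Rps4l only where the sequences match. Over 809 aligned bases, 80.7% were identical, and 0% of the 50-base words of the Rps4l transcript occur in that of Rps4x. The 30 aligned bases with the most differences, read from GENCODE M21 transcripts on GRCm38, show how far the genes have diverged, with the 15 differing bases in capitals.
Rps4l, transcript bases 540 to 569: CTCGCtAgaCaGCggAaaaatCacCgaTGC
Rps4x, transcript bases 580 to 609: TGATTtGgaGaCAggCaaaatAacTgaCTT

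Rps4x itself did not follow Rps4l. Its values were 409 to 708 CPM in YKO and 294 to 766 in OKO, with a log2 fold change of -0.25 (SE 0.24) and an edgeR adjusted p of 0.636. Counts of Rps4l per 100 counts of Rps4x, a ratio that needs no scaling between libraries, were 1.93 ± 0.58 (SD, n = 7) in OKO and 3.93 ± 0.34 (SD, n = 4) in YKO. In wild type they were 2.60 ± 0.97 (SD, n = 4) in old and 4.50 ± 0.60 (SD, n = 4) in young mice. The ratio in the 7 OKO libraries, at 0.905 to 2.60, lay below that in the 4 YKO libraries, at 3.68 to 4.41, and that in the 4 OWT libraries, at 1.20 to 3.46, lay below that in YWT, at 4.05 to 5.39. In wild type, age and the title prefix cannot be told apart in this ratio either. The ratio was computed after the values of Rps4l were seen and is a description with no test.

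Markers of other cells moved in the same comparison. From YKO to OKO, 5 of 7 B cell markers, 4 of 7 erythroid markers and 1 of 5 T cell markers (Cd3e) fell by the same edgeR rule. The summed B cell markers were at 190 to 1452 CPM in YKO and 27.3 to 195 in OKO, the summed erythroid markers at 1562 to 4485 and 33.7 to 2495, and the summed T cell markers at 25.8 to 94.4 and 10.9 to 43.2. All markers of these lists had counts in all 19 libraries. Their part in the levels of Rps4l and of the other ribosomal protein genes was not tested.

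Within the libraries without title prefix, OKO vs YKO gave another count. With the 3 OKO libraries of that kind, 16 members were called, all lower in OKO, where 17.9% of all genes were called and 11.6% were called lower, and with the prefix as a covariate 15 were called, all lower, where 19.1% and 13.4% were. The member medians were then -0.53 and -0.59, compared with 0.54 and 0.41 over all genes. Rps4l was at -1.85 (SE 0.31, edgeR adjusted p = 0.00244) in the first of these fits, Rpl35 at -1.08, Rps27l at -1.03, Rpl29 at -0.94 and Rplp0 at -0.91. These 3 OKO libraries had TMM factors of 1.24 to 1.83, above the 0.847 to 0.957 of YKO, and summed B cell markers of 27.3 to 32.3 CPM. Their shares of counts on the members, 3.32% to 3.89%, lay within the range of YKO.

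The member medians in the comparisons with OKO depended on how libraries were scaled, and that of OKO vs YKO changed sign while that of OKO vs OWT stayed below 0 under the scalings named here. When libraries were scaled by their totals alone, the median of OKO vs YKO was 0.02 (45 higher, 37 lower) in place of -0.20, and that of OKO vs OWT -0.02 (28 higher, 54 lower) in place of -0.24, while the medians over all genes moved to 0.63 and 0.46. Upper-quartile scaling gave -0.06 and -0.06, and DESeq2 size factors -0.15 and -0.15. When the test was limited to genes with a mean of at least 5 CPM, the genes at large were at 0.03 and 0.03. The members were then at 0.00 (40 higher, 40 lower) and -0.04 (18 higher, 62 lower). The member median lay below that of all genes tested in all these settings, but by little in the last. Within groups, the library medians of the members spread by an SD of 0.44 on the log2 scale. Rps4l was called in OKO vs YKO under each of these 4 settings, at -1.06, -1.16, -1.25 and -1.08 in the order given. It was not called when only the OKO and YKO libraries entered the fit (-1.29, edgeR adjusted p = 0.0923).

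**Figure D5:**
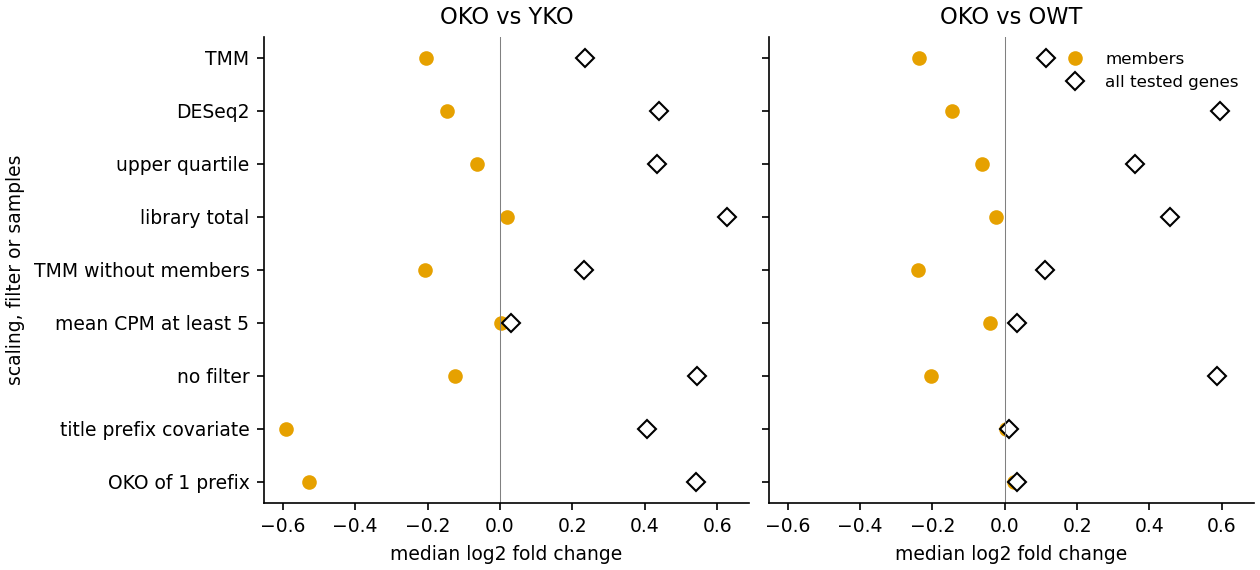
Median log2 fold change of the members and of all tested genes for OKO against YKO and against OWT under 9 settings of scaling, filter and covariate. The member median of OKO vs YKO moves from -0.59 with the title prefix as a covariate to 0.02 when libraries are scaled by their totals alone.

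The paralogs were set against their partners within each library. Rps27l, a paralog induced by p53, shares 79.3% of its aligned bases with Rps27 and 0% of its 50-base words, so that reads of that length or longer tell them apart. The aligned stretch with the most differences, from the same transcripts, has 9 of them in capitals.
Rps27l, transcript bases 258 to 287: gtGggTtgTtcAactgtGTtGtgCcagccC
Rps27, transcript bases 205 to 234: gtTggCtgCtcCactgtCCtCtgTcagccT

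Rps27l made up 23.4% ± 9.05 (SD, n = 7) of the counts of the pair in OKO and 32.5% ± 5.51 (SD, n = 4) in YKO. In wild type it made up 22.7% ± 4.33 (SD, n = 4) in old and 26.0% ± 2.17 (SD, n = 4) in young mice. The log2 ratio of Rps27l to Rps27 differed by 0.45 between YKO and YWT (exact two-sided permutation p = 0.0857) and by -0.73 between OKO and YKO (exact two-sided permutation p = 0.103). The OKO libraries ranged from 13.8% to 39.0%, which spans the means of the other groups. Rpl22l1 to Rpl22, Rpl36al to Rpl36a and Rpl7l1 to Rpl7 were compared in the same way, and none of the 16 tests had an adjusted p under 0.05, with the lowest at 0.823. With 4 libraries against 4 such a two-sided test cannot go below 0.0286, and with 7 against 4 its floor is lower. At neither floor could a ratio pass the adjusted threshold over 16 tests by itself, so neither the 4 against 4 nor the 7 against 4 comparisons can decide on a single pair. Rpl39l, with 0 to 207 counts, was not set against Rpl39, and its highest libraries were OKO replicate 5 at 3.30 CPM and YKO replicate 4 at 2.28.

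Other TOP mRNAs and mitochondrial ribosomal protein genes had medians of the same sign as the members in the comparisons with OKO, and none of these genes was called by the edgeR test or by DESeq2 in any of the 4 comparisons. Between YKO and OKO, the 17 other TOP mRNAs had a median of -0.35 with 17 lower, and the 77 tested mitochondrial ribosomal protein genes a median of -0.40 with 77 lower. At an unadjusted p under 0.05, where 15.8% of all genes passed, there were 4 of 17 and 10 of 77. Between OWT and OKO the medians were -0.25 and -0.16, with 2 and 0 at an unadjusted p under 0.05, where 8.14% of all genes passed. Between YWT and YKO the members were centered on 0, whereas 16 of 17 other TOP mRNAs and 66 of 77 mitochondrial genes were higher in YKO, with medians of 0.19 and 0.18 and 0 at an unadjusted p under 0.05. In the same comparison the 7 erythroid markers had log2 fold changes of 1.10 to 2.22, with 1 of 7 called (Alas2, higher in YKO), and summed to 630 to 2005 CPM in YWT and 1562 to 4485 in YKO, and their part in these medians was not tested. Between YWT and OWT, 0 genes of these lists had an unadjusted p under 0.05.

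Of 13 regulators of ribosomal protein translation, 0 were called by the edgeR test in any comparison, and 3 had an unadjusted p under 0.05 in OKO vs YKO, where 15.8% of all genes did, and 0 in the other 3 comparisons. DESeq2, which called 8.5% of all genes in OKO vs YKO, called 1 of them, Larp1, lower in OKO. Larp1, which binds the TOP tract, was at -0.69 (SE 0.22, edgeR adjusted p = 0.130), Mlst8, a subunit of both mTOR complexes, at -0.55 (SE 0.24, edgeR adjusted p = 0.270) and Rptor, which brings substrates to mTOR, at -0.43 (SE 0.20, edgeR adjusted p = 0.288). Deptor, an inhibitor of mTOR, was at 0.53 (SE 0.26, edgeR adjusted p = 0.326). Among the TOP mRNAs, Hnrnpa1 was at -0.66 and Nap1l1 at -0.60, both with edgeR adjusted p over 0.05.

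The interaction of genotype and age asked whether the age change differed between knockout and wild type. It had a median of -0.20 over the members and 0.18 over all genes, with 8 members above 0 and 74 below. This direction turned under other settings, to 0.08 (62 above, 20 below) when libraries were scaled by their totals alone, 0.03 (52 above, 30 below) with the title prefix as a covariate and 0.04 (52 above, 28 below) for genes with a mean of at least 5 CPM, with all genes at 0.61, 0.02 and 0.03. None of the 82 members was called by edgeR (0% of all genes), none had an unadjusted p under 0.05 (4.62%), and DESeq2 called 0 (0.0152%). The median SE was 0.41, and the 95% interval lay within a 2-fold difference for 23 of 82 members, and reached beyond it for the others.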

How the data were processed

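The authors trimmed reads (Trim Galore 0.4.3 and cutadapt per the labels), used STAR for alignment against mm10 (GENCODE M22), and deposited raw counts per gene symbol from featureCounts for 19 RNA-seq libraries. Strand setting, read length and the handling of reads with several hits were not given in the sources used here. The bisulfite libraries were not analysed here. Groups follow the labels.

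Counts were filtered with filterByExpr and scaled by TMM, and the quasi-likelihood test of edgeR 4.0.16 (R 4.3.3) was fitted once to the 19 libraries, with a mean for each group as the only terms. A gene was called at a Benjamini-Hochberg adjusted p under 0.05 over all 33690 tested genes and a fold change over 1.5, the interaction at the adjusted p alone. The script was tested on simulated data. CPM are scaled by TMM. Before logarithms 1 was added, except in the paralog ratios, the relation to mRNA length and the sum of the other members. Paralog ratios used an exact permutation test (scipy 1.17.1, Benjamini-Hochberg over 16 tests). Depth, at 22197555 counts or more, left Rpl3l, Rpl39l and Rpl10l at low counts.

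Gene models were those of GENCODE M21, in which all 83 members and 54510 of 55376 symbols were found. Sequences came from its transcripts (aligned with Biopython 1.88) and from RefSeq on GRCm38.p6.

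Named genes are a fixed list of 22 members, every member called, the 4 highest and 4 lowest fold changes in each comparison, and the 4 highest and 4 lowest in level and in variation. A list of ribosomal protein genes outside the rule is not reported here. Members and gene lists were chosen with earlier results of these data known. Alternatives were DESeq2 1.42.0, upper-quartile and library-total scaling, TMM without the members, no filter or a mean CPM of 5, the adjusted p alone, the compared groups only, the title prefix as a covariate or 1 prefix only, a replicate block, and each library left out. Scaling to the members, the Rps4l ratio and the left-out libraries for paralog ratios were added after seeing the data.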

Additional observations from a re-analysis of the deposited data

Results flagged for a closer look

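In 11 of the 156 group and member combinations examined, 1 library stood apart from the rest of its group by Dixon's criterion at 95%. For independent, normally spread values, chance alone gives that in about 1 in 20. The members moved together from library to library, so several flags on the same library are not separate events. Values are TMM-scaled CPM. Among the flagged combinations, YWT replicate 1 lay above the other YWT libraries at 9.39 for Rpl24 (others 7.55 to 7.80), 581 for Rpl36 (429 to 444), 1231 for Rps19 (965 to 1005) and 183 for Rps21 (126 to 135). OWT replicate 2 lay below the other OWT libraries at 3.45 for Rpl32l (7.58 to 8.12) and 264.7 for Rplp2 (412 to 429). YKO replicate 2 was low for Rpl7 at 425 (750 to 785).

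The remaining flags fall on members with few counts. Rpl3l was at 1.53 in OKO replicate 1 (others 0.0681 to 0.446). Rpl10l was at 0.116 in YWT replicate 4 and 0.0564 in YKO replicate 2, where the other libraries of the group had 0, and at 0.223 in OKO replicate 2 (others 0 to 0.0817). Where all other libraries are at 0, any count at all raises the flag.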

How the results depend on the processing

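The number of members called was 0 in both comparisons with YWT, in OKO vs OWT and in the interaction under every alternative run. In OKO vs YKO it was 1, and 15 with the title prefix as a covariate, 16 with OKO of 1 title prefix only, 0 with the compared groups only and 0 when scaled to the summed member counts. Leaving out each library in turn gave 0 to 1, with 0 without YKO replicate 1, 3 or 4 or OKO replicate 3, where Rps4l had edgeR adjusted p-values of 0.0876, 0.0728, 0.0947 and 0.0545. The median of OWT vs YWT was -0.63 with the prefix covariate in place of -0.01, an estimate that rests on the OKO libraries alone for the prefix. With the replicate block, OKO vs YKO called 2 of the 82 members, Rps4l and Rpl35. Of all 33690 genes tested, 610 were called higher and 1164 lower in that fit. Deviations of same-numbered libraries from their group means correlated at -0.33 to 0.36. Differently numbered libraries were not compared, so these values do not settle whether replicate numbers pair the samples. Leaving out libraries gave medians of -0.39 to -0.11 for OKO vs OWT, -0.35 to -0.01 for OKO vs YKO, -0.10 to 0.11 for OWT vs YWT and -0.16 to 0.15 for YKO vs YWT, mean shares of 3.39% to 4.04% for YWT, 3.38% to 3.79% for OWT, 3.16% to 3.83% for YKO and 3.29% to 3.68% for OKO. Paralog ratios with a library left out come from designs in which no single ratio could pass the adjusted threshold by itself, so they say nothing of stability. Of 4358 values of 37 named members, 0 called values turned sign, 6 lost a call (Rps4l), 12 gained one, and 376 uncalled values changed sign. Causes were not tested.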

Other observations

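Rows named as ribosomal protein pseudogenes, 305 in all, held 1.35 to 2.40 counts per 100 counts of the members. The means were 1.99 ± 0.35 (SD, n = 7) in OKO, 1.81 ± 0.40 (SD, n = 4) in YKO, 1.83 ± 0.37 (SD, n = 4) in OWT and 1.75 ± 0.12 (SD, n = 4) in YWT, and the groups overlapped. Mitochondrial ribosomal protein genes took 0.346% to 0.595% of all counts.

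How well some members are separated from a near copy depends on the read length, which is not given in the sources used here. Rpl6l shares 98.7% of its aligned bases and 61.8% of its 50-base words with Rpl6, and Rpl32l shares 97.5% and 19.4% with Rpl32. Of the 100-base words, Rpl6l shares 45.7% with Rpl6 and Rpl32l shares 0% with Rpl32. Their counts, and those of Rpl6 and Rpl32 in part, are uncertain to that extent.

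The deviation of a member from its own mean was related to mRNA length differently in different libraries. Over 75 protein-coding members, r with length ran from -0.46 in OKO replicate 6 to 0.34 in OKO replicate 4. Members are not independent of each other, and the values are a description.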
